A study of Mus musculus with 4 samples.

Results

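Laminins, heparan sulfate proteoglycans and nidogen are the building blocks of the basement membrane, and 9 of their genes were followed here across the 4 libraries of a study of Lingo1 in epithelial wound repair. They are the laminin chain genes Lama3, Lama5, Lamb1, Lamb2, Lamb3 and Lamc1, the perlecan gene Hspg2, the agrin gene Agrn and the nidogen gene Nid1, taken by name from a count table of 46078 mouse genes. Of these 9, 8 had at least 1 CPM (counts scaled to library size by TMM) in at least 1 library and were tested among 12348 genes, and Nid1 did not. The cells were MLE-12, a mouse lung epithelial line immortalised with a viral large T antigen under the surfactant protein C promoter. The groups were cells labelled Lingo1 KO at 24 hours after a scratch wound, unscratched cells labelled Lingo1 KO, WT cells at 24 hours after a scratch, and unscratched WT cells, with 1 library per condition. How the knockout was made, and whether it is a single clone, is not given in the sources used here. Lingo1 encodes a transmembrane protein with leucine-rich repeats, best known as a brake on myelination and axon regrowth.

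A laminin is a trimer of an alpha, a beta and a gamma chain. The trimers polymerise under the cell, are held by integrins and dystroglycan, and are tied to the type IV collagen network by nidogens and perlecan. Agrin binds laminin with its amino-terminal end and dystroglycan with its carboxy-terminal end, and both agrin and perlecan carry heparan sulfate chains that hold growth factors. In the lung, trimers with the alpha 5 chain are typical of the mature alveolar basement membrane, and the trimer that holds the Lama3 and Lamb3 products anchors epithelial cells and is laid down by migrating epithelium.

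The libraries held 48333801 counts for scratched and 29533746 for unscratched knockout-labelled cells, and 27907279 and 26903429 counts for scratched and unscratched WT cells. Lingo1 itself was at 41.4 and 41.2 CPM in the scratched and unscratched knockout-labelled libraries, against 42.9 and 46.4 CPM in the scratched and unscratched WT libraries. At the mRNA level the knockout label was thus not borne out. Counts per gene show neither a change of sequence nor the protein, so they cannot decide whether Lingo1 function was lost. The libraries are therefore called knockout-labelled, and each direction between the genotypes depends on the label. The epithelial marker Cdh1 lay between 712 and 859 CPM in all 4 libraries, and Abca3 and Nkx2-1 of alveolar type 2 cells between 128 and 185 CPM, while the surfactant protein genes Sftpa1 and Sftpd were at 0. The genotypes differed in markers of several cell types (additive fit of edgeR, described with the genotype results). Of the 14 alveolar type 2 and epithelial markers 9 were tested and 4 rose, with summed levels of 1722 and 1700 CPM in the scratched and unscratched knockout-labelled libraries and 1630 and 1592 CPM in the scratched and unscratched WT libraries. Among the 4 was the surfactant gene Sftpb, at 93.6 and 107 CPM in the scratched and unscratched knockout-labelled libraries and 22.9 and 25.4 CPM in the scratched and unscratched WT libraries. Sftpc also rose, at 19.8 and 20.6 CPM in the scratched and unscratched knockout-labelled libraries and 6.42 and 5.68 CPM in the scratched and unscratched WT libraries. Of the 8 airway and basal markers 5 were tested and 4 rose, with sums of 144 and 156 CPM in the scratched and unscratched knockout-labelled libraries and 58.3 and 57.4 CPM in the scratched and unscratched WT libraries, and Krt5 and Scgb3a2 at 0. Of the 10 fibroblast markers 4 were tested and 3 rose, among them Col1a1, at 177 and 197 CPM in the scratched and unscratched knockout-labelled libraries and 16.5 and 21.3 CPM in the scratched and unscratched WT libraries. The summed fibroblast level was 2663 and 2913 CPM in the scratched and unscratched knockout-labelled libraries. In the scratched and unscratched WT libraries it was 2838 and 2869 CPM. Most of it was Dcn, at 2481 and 2710 CPM in the scratched and unscratched knockout-labelled libraries. Dcn was at 2819 and 2846 CPM in the scratched and unscratched WT libraries. It was thus lower with the knockout label in both comparisons, but did not pass (edgeR quasi-likelihood adjusted p = 0.151). Tcf21 was at 0 in all 4 libraries. Of the 8 endothelial markers Tek alone was tested, and it did not pass. The list summed to 179.9 and 213 CPM in the scratched and unscratched knockout-labelled libraries and 208 and 219.8 CPM in the scratched and unscratched WT libraries, nearly all of it Tek, with Cdh5, Tie1 and Emcn at 0. Leukocyte markers summed to 1.86 to 2.15 CPM, with Ptprc and Adgre1 at 0. Of the 8 alveolar type 1 markers 7 were tested, 2 rose and 1 fell. Their sums were 2699 and 2750 CPM in the scratched and unscratched knockout-labelled libraries and 2905 and 3023 CPM in the scratched and unscratched WT libraries. The part of all these markers in the results below was not tested.

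Compared per length of gene, the beta chain Lamb2 was the most abundant member in every library and the gamma chain Lamc1 came next. On the authors' RPKM scale (reads per kilobase of gene length, scaled to library size), the level of Lamb2 was 155 and 168 in the scratched and unscratched knockout-labelled libraries, against 164 and 195 in the scratched and unscratched WT libraries. Lamc1 stood at 102 and 120.5 RPKM in the knockout-labelled libraries and at 81.1 and 82.8 RPKM in WT, in the same order, so the ranges of Lamb2 and Lamc1 did not overlap. Hspg2, with 50.6 to 68.0 RPKM over the 4 libraries, overlapped with Lama5, with 38.6 to 66.3 RPKM, and Lama5 overlapped with Agrn, with 28.8 to 43.3 RPKM. Within each of the 4 libraries Hspg2 was above Lama5 and Lama5 above Agrn. Lamb1 followed at 5.64 to 9.75 RPKM. Lamb3 and Lama3 were lowest. On the RPKM scale the level of Lamb3 was above that of Lama3 in both knockout-labelled libraries and below it in both WT libraries. That order depended on the gene lengths: per kilobase of GENCODE exon length, a scale chosen after seeing the data, Lamb3 was at 2.19 and Lama3 at 2.52 CPM in the unscratched knockout-labelled library, so Lama3 was higher there. No library had a replicate, so these ranges are spreads over conditions, not errors.

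**Figure D1:**
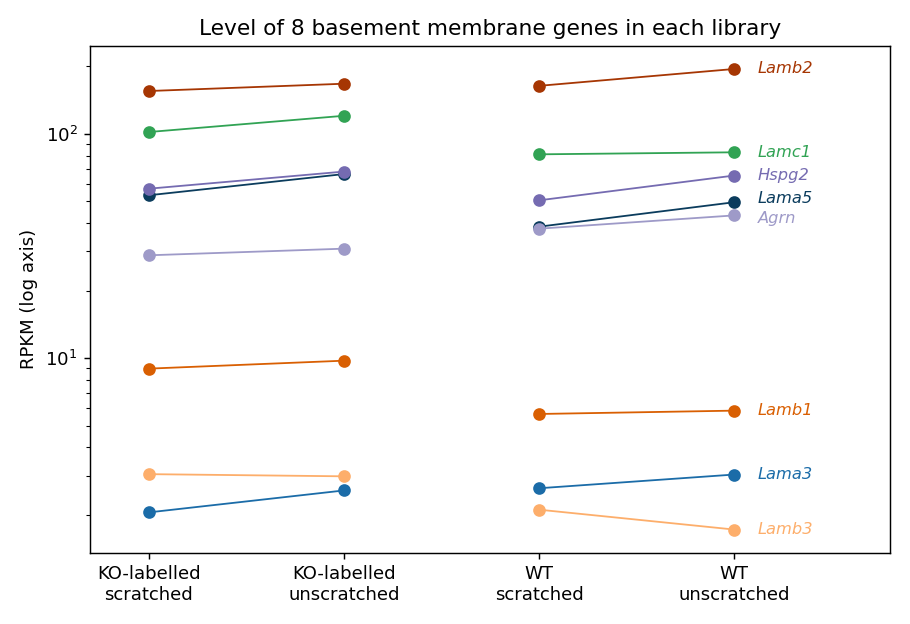
Level of the 8 members with RPKM values (log axis) in the scratched and unscratched knockout-labelled libraries and the scratched and unscratched WT libraries, 1 point per library, with lines joining libraries of the same genotype. Lamb2 is highest in all 4, between 155 and 195 RPKM, and Lamb3 and Lama3 cross between the genotypes on this scale, a cross that GENCODE exon lengths undo in the unscratched knockout-labelled library.

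Nid1, which links laminin to collagen, was close to absent. Its read counts were 11 and 4 in the scratched and unscratched knockout-labelled libraries, and 0 and 3 in the scratched and unscratched WT libraries, where 3 counts correspond to 0.108 and 0.111 CPM. All but the first lay near that floor, Nid1 did not enter the test, and no fold is given. The count of 11 came from the deepest library. In CPM Nid1 was at 0.230 and 0.135 in the scratched and unscratched knockout-labelled libraries, and at 0 and 0.111 in the scratched and unscratched WT libraries. Its paralog Nid2 was at 185 and 246 CPM in the scratched and unscratched knockout-labelled libraries, against 155 and 176 CPM in the scratched and unscratched WT libraries. Nid1 lies on chromosome 13 from 13437551 to 13512269 on the plus strand (GENCODE M21, mm10). A GENCODE antisense gene shares 2.06% of its exon bases.

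The knockout-labelled libraries had more mRNA of 4 laminin chains, Lama5, Lamb1, Lamb3 and Lamc1, and less of Lama3 and Agrn than WT, with and without a scratch. In an additive fit of genotype and scratch to all 4 libraries (edgeR's quasi-likelihood test, Benjamini-Hochberg adjustment over 12348 genes), 4 of the 8 tested members rose and 2 fell, where 13.8% of all tested genes rose and 12.2% fell, 26% in all. Above, 4 of 9 tested alveolar type 2 and epithelial markers and 4 of 5 airway and basal markers rose with the same label. So did 3 of 4 fibroblast markers. Cdh1 and Dcn, the most abundant of the fibroblast markers, did not pass. Of 7 tested alveolar type 1 markers 2 rose and 1 fell. Hspg2 and Lamb2 did not pass. The median genotype effect was 0.28 (log2) over the 8 tested members and 0.00 over all tested genes. The members were chosen with earlier results of these data known, which limits both comparisons with all tested genes. No member reached a 2-fold difference in either comparison of genotypes, which 2.24% of tested genes did without a scratch (1.36% higher and 0.883% lower) and 1.9% after it (1.47% higher and 0.429% lower). The additive fit has 1 residual degree of freedom, which is the disagreement of the 2 genotypes' scratch responses. With 25.4 prior degrees of freedom, the spread used for each gene came mostly from that shared over the tested genes. The p-values of the fit thus compare these 4 libraries and no replicate cultures. The same limit holds for its standard errors (SE), each taken as the absolute log2 effect over the square root of the test's F statistic. Ratios are given below with a 95% counting interval (Clopper-Pearson on the split of the counts). It covers counting error only, and the reads carried no molecular identifiers. By that interval alone all 8 tested members differed between genotypes in both comparisons, 5 higher and 3 lower in each. Of all tested genes 51% did so without a scratch (26.8% higher, 24.1% lower) and 47.6% after it (24% higher, 23.6% lower). The interval narrows as counts grow, and many tested genes had far fewer counts than most members. Lamb2, with 25757 to 42077 counts, differed by this rule at a ratio of 0.951 after the scratch.

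**Figure D2:**
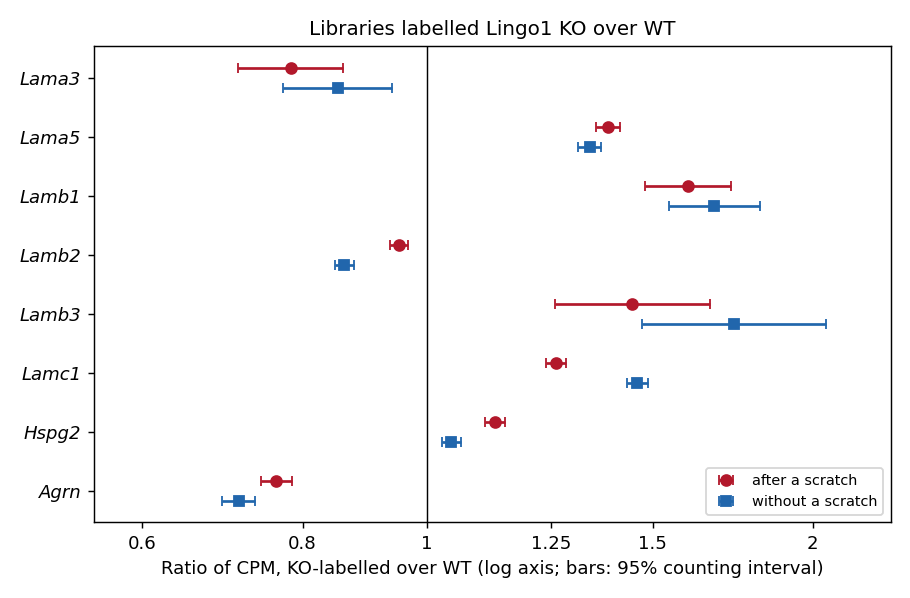
Ratio of CPM in the knockout-labelled over the WT library (log axis) for the 8 tested members, after a scratch and without one, with bars for the 95% counting interval. Lama5, Lamb1, Lamb3, Lamc1 and Hspg2 lie above 1 and Lama3, Lamb2 and Agrn below 1 in both comparisons.

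Lama5 (chromosome 2, 180176373 to 180225859, minus strand), the alpha chain of the alveolar basement membrane, was at 609 and 754 CPM in the scratched and unscratched knockout-labelled libraries, against 439.9 and 562 CPM in the scratched and unscratched WT libraries. Both knockout-labelled values exceeded both WT values. The ratio of the genotypes was 1.34 in unscratched cells (95% interval 1.31 to 1.37) and 1.39 in scratched cells (1.36 to 1.41). Lama5 rose by 0.45 ± 0.06 (log2, SE; edgeR quasi-likelihood adjusted p = 2.63e-06).

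Lama3 (chromosome 18, 12333819 to 12583013, plus strand), the alpha chain of the epithelial anchoring trimer, went the other way. It stood at 21.8 and 27.1 CPM in the scratched and unscratched knockout-labelled libraries, against 27.8 and 31.8 CPM in the scratched and unscratched WT libraries, so the unscratched knockout-labelled value lay just under the scratched WT value. Its ratio was 0.852 in unscratched cells (0.773 to 0.939) and 0.783 in scratched cells (0.713 to 0.861). Lama3 fell by 0.29 ± 0.08 on the log2 scale (edgeR quasi-likelihood adjusted p = 0.00771), a call that did not hold with DESeq2's Wald test (adjusted p = 0.213). An antisense gene that shares 1.83% of its exon bases had 0 counts in every library.

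Among the beta chains the scarce members were higher and the abundant one was not. Lamb1 (chromosome 12, 31265234 to 31329644, plus strand), widely used in development and in many tissues, was at 52.2 and 56.3 CPM in the scratched and unscratched knockout-labelled libraries, against 32.7 and 33.6 CPM in the scratched and unscratched WT libraries. The groups were far apart: its ratio was 1.68 in unscratched cells (1.55 to 1.82) and 1.60 in scratched cells (1.48 to 1.73), and it rose by 0.71 ± 0.06 (log2, SE; edgeR quasi-likelihood adjusted p = 1.44e-09). Lamb3 (chromosome 1, 193207699 to 193343878, plus strand), the beta chain of the anchoring trimer, was at 14.9 and 14.5 CPM in the scratched and unscratched knockout-labelled libraries and at 10.3 and 8.34 CPM in the scratched and unscratched WT libraries. It rests on 226 to 712 counts, the fewest of the tested members. Its ratio was 1.73 in unscratched cells (1.47 to 2.05) and 1.45 in scratched cells (1.26 to 1.66), and it rose by 0.65 ± 0.10 (log2, SE; edgeR quasi-likelihood adjusted p = 2.12e-05).

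Lamb2 (chromosome 9, 108479736 to 108490530, plus strand), the beta chain of muscle, kidney and vessel basement membranes, was at 878 and 942 CPM in the scratched and unscratched knockout-labelled libraries, against 923 and 1092 CPM in the scratched and unscratched WT libraries. The unscratched WT library was highest and the other 3 lay close together. The ratio was 0.863 in unscratched cells (0.849 to 0.877) and 0.951 in scratched cells (0.937 to 0.966). The fitted genotype effect of -0.14 ± 0.06 (log2, SE) did not pass edgeR's quasi-likelihood test (adjusted p = 0.106).

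A ratio of counts within a library does not depend on how libraries are scaled. The count of Lamb1 was 5.94% and 5.98% of that of Lamb2 in the scratched and unscratched knockout-labelled libraries, against 3.54% and 3.08% in the scratched and unscratched WT libraries. That ratio was 1.94 times as high in knockout-labelled as in WT cells without a scratch (counting interval 1.79 to 2.11) and 1.68 times after it. For Lamb3 over Lamb2 the factors were 2.01 (1.71 to 2.37) in unscratched cells and 1.52 (1.32 to 1.74) in scratched cells. Lamb1 over Lamb3 differed between genotypes by factors of 0.966 (0.807 to 1.16) and 1.11 (0.946 to 1.29), both intervals including 1. Over Lama3, Lama5 was 1.57 times (1.43 to 1.74) and 1.77 times (1.61 to 1.95) as high in knockout-labelled as in WT libraries.

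Expressed as shares of a chain class on the RPKM scale, Lama5 made up 96.3% and 96.2% of the alpha chains in the scratched and unscratched knockout-labelled libraries, against 93.6% and 94.2% in the scratched and unscratched WT libraries. Lama3 supplied nearly all of the rest, and Lama1, Lama2 and Lama4 stayed under 1 CPM. Lamb2 made up 92.8% and 92.9% of the beta chains in the scratched and unscratched knockout-labelled libraries and 95.5% and 96.3% in the scratched and unscratched WT libraries. The share of Lamb1 was 5.37% and 5.41% in the scratched and unscratched knockout-labelled libraries, against 3.29% and 2.88% in the scratched and unscratched WT libraries. These shares depend on the gene lengths the authors used, and with exon lengths from GENCODE the mean share of Lamb1 over the libraries was 2.72% in place of 4.24%.

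**Figure D3:**
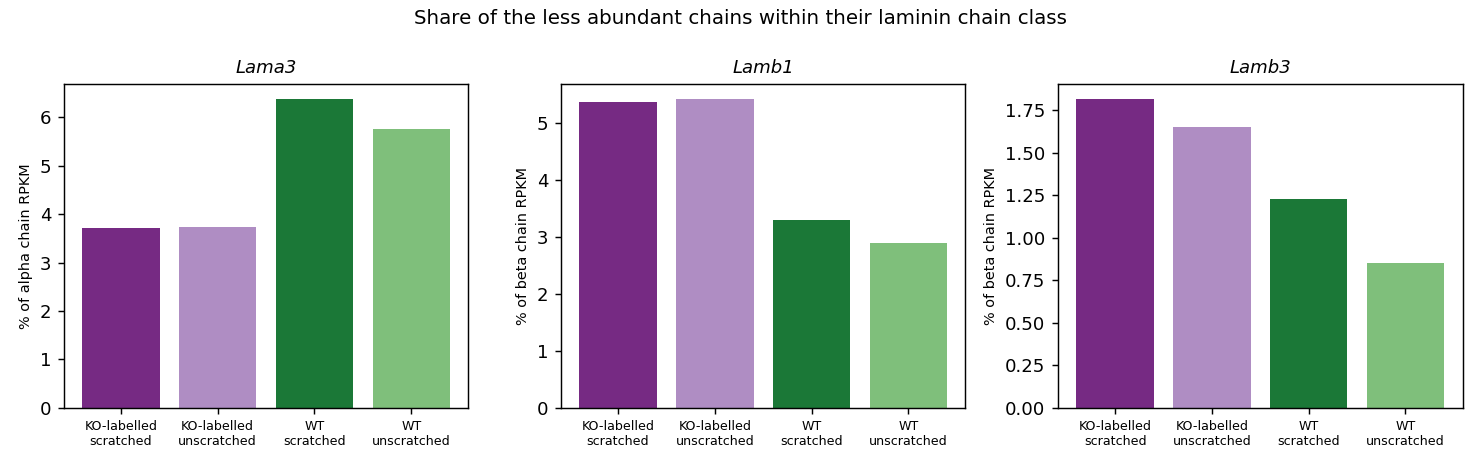
Share of Lama3, Lamb1 and Lamb3 in the summed RPKM of their laminin chain class (percent), with 1 bar per library and no error bars because no condition had a replicate. The share of Lama3 is lower and those of Lamb1 and Lamb3 are higher in both knockout-labelled libraries than in both WT libraries.

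Lamc1 (chromosome 1, 153218922 to 153332786, minus strand), the gamma chain of most laminins, was at 780.4 and 917 CPM in the scratched and unscratched knockout-labelled libraries, against 619 and 628 CPM in the scratched and unscratched WT libraries. Both knockout-labelled values were above both WT values, and the unscratched knockout-labelled library was highest. The ratio was 1.46 in unscratched cells (1.43 to 1.49) and 1.26 in scratched cells (1.24 to 1.28). Lamc1 rose by 0.44 ± 0.06 (log2, SE; edgeR quasi-likelihood adjusted p = 1.02e-05). Its count was 88.8% and 97.4% of that of Lamb2 in the scratched and unscratched knockout-labelled libraries, against 67.0% and 57.6% in the scratched and unscratched WT libraries.

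The proteoglycans did not move together. Agrn (chromosome 4, 156165290 to 156197488, minus strand) was at 249 and 265 CPM in the scratched and unscratched knockout-labelled libraries, against 326 and 371 CPM in the scratched and unscratched WT libraries, with no overlap between the genotypes. Its ratio was 0.713 in unscratched cells (0.692 to 0.735) and 0.763 in scratched cells (0.743 to 0.785), and it fell by 0.44 ± 0.06 on the log2 scale (edgeR quasi-likelihood adjusted p = 1.75e-06). Hspg2 (chromosome 4, 137468769 to 137570630, plus strand), which encodes the large proteoglycan perlecan, was at 812 and 963 CPM in the scratched and unscratched knockout-labelled libraries, against 718 and 921 CPM in the scratched and unscratched WT libraries. Here the 2 unscratched libraries were highest and the genotypes overlapped. The ratio was 1.05 in unscratched cells (1.03 to 1.06) and 1.13 in scratched cells (1.11 to 1.15), and the genotype effect of 0.12 ± 0.06 (log2, SE) did not pass edgeR's quasi-likelihood test (adjusted p = 0.171). As a share of the Hspg2 count, Agrn was 30.6% and 27.5% in the scratched and unscratched knockout-labelled libraries, against 45.4% and 40.3% in the scratched and unscratched WT libraries.

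The start regions of Lama5, Lamb1 and Lamb3, which rose, and of Agrn, which fell, are shown to let their composition be compared. Each runs from 250 bases before to 50 bases after a RefSeq transcription start (GRCm38.p6), 5′ to 3′ on the gene's strand, with capitals for GGGCGG, the GC box bound by Sp1-type factors, on either strand.
Lama5, chr2:180225810-180226109, minus strand: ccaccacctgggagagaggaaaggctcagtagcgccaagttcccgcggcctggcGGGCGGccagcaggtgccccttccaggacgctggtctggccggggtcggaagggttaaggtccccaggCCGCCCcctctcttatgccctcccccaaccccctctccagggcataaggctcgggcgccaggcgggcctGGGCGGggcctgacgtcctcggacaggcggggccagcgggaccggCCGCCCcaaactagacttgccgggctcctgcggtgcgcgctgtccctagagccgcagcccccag
Lamb1, chr12:31265043-31265342, plus strand: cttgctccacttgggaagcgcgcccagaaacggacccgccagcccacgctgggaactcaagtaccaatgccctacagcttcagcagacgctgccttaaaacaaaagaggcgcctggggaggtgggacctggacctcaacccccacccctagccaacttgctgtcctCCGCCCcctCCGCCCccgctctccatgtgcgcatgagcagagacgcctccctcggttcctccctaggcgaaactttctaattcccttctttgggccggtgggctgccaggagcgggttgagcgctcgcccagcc
Lamb3, chr1:193301744-193302043, plus strand: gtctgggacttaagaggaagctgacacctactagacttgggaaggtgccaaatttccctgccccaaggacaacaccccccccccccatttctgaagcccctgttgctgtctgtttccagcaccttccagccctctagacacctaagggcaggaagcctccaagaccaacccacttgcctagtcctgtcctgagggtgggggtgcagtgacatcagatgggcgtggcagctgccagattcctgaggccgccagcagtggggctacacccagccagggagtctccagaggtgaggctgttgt
Agrn, chr4:156197439-156197738, minus strand: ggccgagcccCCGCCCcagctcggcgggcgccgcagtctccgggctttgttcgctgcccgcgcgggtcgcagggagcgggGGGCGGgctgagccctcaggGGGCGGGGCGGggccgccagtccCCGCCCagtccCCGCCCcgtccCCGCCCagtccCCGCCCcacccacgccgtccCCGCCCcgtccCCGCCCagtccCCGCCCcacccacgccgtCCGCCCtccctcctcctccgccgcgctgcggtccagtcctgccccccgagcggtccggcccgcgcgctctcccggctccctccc
The GC box occurred 12 times in the Agrn window, counting overlapping matches, 4 times in that of Lama5 and 2 times in that of Lamb1, and was not found in that of Lamb3. Of 32817 promoter windows of that length, 35.6% held it. TATAAA (held by 13.6% of windows) and TGANTCA (held by 7.81%), searched on both strands, were in none of these 4 windows, and CCAAT (held by 37.4%) was in that of Lamb1 alone. GC content was 83.3% for Agrn, 72.7% for Lama5, 63.7% for Lamb1 and 59.3% for Lamb3. Windows were used for 7 members, with Lama3 left out and none found for Lamc1, and Lamb3 and Agrn each had another start. The other Agrn window held 2 GC boxes, as many as that of Lamb1 and fewer than that of Lama5, and its GC content was 61.3%. Of the members that did not pass for the genotype, Hspg2 had 5 GC boxes (70.3% GC) and Lamb2 had 0 (44% GC). The window of Nid1, which was not tested, held 1 (64.7% GC). Both Lamb3 starts lie inside the GENCODE span of the gene. A match here is a description of the letters and not a bound site.

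Of the 8 tested members, 2 fell after the scratch. These were Lama5 and Hspg2 in the additive fit, and no member rose, where 1.44% of all tested genes fell and 1.47% rose, 2.91% in all (edgeR, as above). Rising genes were 50.4% of those, and 40.1% when libraries were scaled by total counts. The median scratch effect was -0.16 (log2) over the 8 tested members and 0.01 over all tested genes. No member changed 2-fold, against 0.267% of tested genes in knockout-labelled cells (0.17% higher, 0.0972% lower) and 0.858% in WT cells (0.121% higher, 0.737% lower). By the counting interval alone, 0 members were higher and 7 lower in knockout-labelled cells (18.2% and 13.9% of tested genes, 32% in all), and 1 was higher and 5 lower in WT cells (22.3% and 14.9%, 37.2% in all). The letter in the tables that stands for unscratched was identified by elimination, and the direction of each scratch effect depends on it.

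Lama5 after the scratch was at 0.808 times its unscratched level in knockout-labelled cells (95% counting interval 0.794 to 0.823) and at 0.782 times in WT cells (0.764 to 0.801). It fell by 0.33 ± 0.06 on the log2 scale (edgeR quasi-likelihood adjusted p = 0.00229). Hspg2 was at 0.843 times (0.830 to 0.856) in knockout-labelled and 0.780 times (0.765 to 0.794) in WT cells, and fell by 0.30 ± 0.06 on the log2 scale (edgeR quasi-likelihood adjusted p = 0.00697). Both also passed with DESeq2's Wald test, which found 41 genes for the scratch in all. Lama3 had ratios of 0.803 (0.731 to 0.881) in knockout-labelled and 0.874 (0.792 to 0.964) in WT cells, with a fitted effect of -0.26 ± 0.08 (log2, SE; edgeR quasi-likelihood adjusted p = 0.0822). Agrn (0.939 and 0.877) and Lamb2 (0.933 and 0.846) were also below 1 in knockout-labelled and in WT cells. Neither passed edgeR's quasi-likelihood test (adjusted p = 0.211 for Agrn and 0.166 for Lamb2). Lamb1 was at 0.926 times (0.870 to 0.986) in knockout-labelled and 0.972 times (0.885 to 1.07) in WT cells. It did not pass either (edgeR quasi-likelihood adjusted p = 0.576).

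Lama5, Hspg2 and Agrn have long transcripts of high GC content: the longest is 11388, 14187 and 8612 bases, with 59.9%, 60.9% and 56.5% GC. The 100 tested genes with a transcript of 7000 bases or more and 55% GC or more had a median scratch difference of -0.06 (log2) in knockout-labelled and -0.20 in WT cells. Over those genes, which include Lama5, Hspg2 and Agrn, the median of the fitted scratch effect was -0.14 and the 10th percentile was -0.295. Lama5 (-0.330) and Hspg2 (-0.303) lay below that percentile, and Agrn (-0.140) lay near the median. The part of length and base content in the scratch result was not tested. For the genotype effect the same genes had a median of 0.07.

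**Figure D4:**
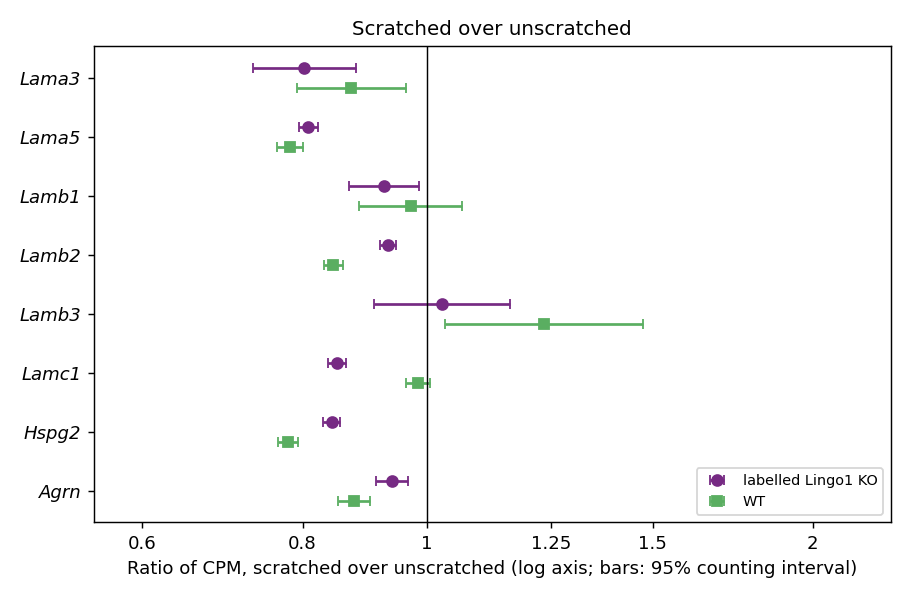
Ratio of CPM in the scratched over the unscratched library (log axis) for the 8 tested members, in knockout-labelled and in WT cells, with bars for the 95% counting interval. Lama5 and Hspg2 lie between 0.780 and 0.843 in both genotypes, and Lamb3 is the one member above 1 in both.

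Lamb3 was the exception to the lower levels, at 1.03 times its unscratched level in knockout-labelled cells (0.910 to 1.16) and 1.23 times in WT cells (1.03 to 1.48), and it did not pass edgeR's quasi-likelihood test (adjusted p = 0.499). The scratch response of Lamc1 was at 0.851 (0.838 to 0.864) in knockout-labelled and 0.985 (0.964 to 1.01) in WT cells. The difference of these responses, knockout-labelled minus WT, was -0.21 on the log2 scale (counting interval -0.25 to -0.17). For Lamb2 that difference was 0.14 (0.11 to 0.17), for Hspg2 0.11 (0.08 to 0.15), for Agrn 0.10 (0.04 to 0.16) and for Lama5 0.05 (0.00 to 0.09). Of all tested genes, 26.5% had such an interval away from 0 (11.6% above, 14.9% below). A difference of at least 2-fold was reached by 0 members and 0.826% of tested genes (0.656% higher, 0.17% lower), and without replicates the differences between responses could not be tested over cultures. The intervals of Lama3, Lamb1 and Lamb3 included 0. The unscratched WT library enters both the unscratched comparison of genotypes and the WT scratch response, so the high unscratched WT value of Lamb2 lowers its ratio in both.

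The other genes of the basement membrane were counted from lists, to be read against the 26% of all tested genes that passed for the genotype. The lists were chosen with earlier results of these data known, which limits that comparison. Of 10 basement membrane collagens, 8 were tested, 4 rose and 0 fell with the knockout label by edgeR's quasi-likelihood test, which is 50% of them, with a median of 0.30 (log2) over the tested genes. The rises were those of Col4a6 (0.98 ± 0.05), Col18a1 (0.83 ± 0.07), whose product carries endostatin, Col4a2 (0.33 ± 0.06) and Col4a1 (0.27 ± 0.06), the last pair forming the common collagen IV trimer. Col4a6 was at 75.0 and 83.2 CPM in the scratched and unscratched knockout-labelled libraries, against 39.5 and 40.6 CPM in the scratched and unscratched WT libraries, and its ratio without a scratch was 2.05 (1.91 to 2.20).

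Of 22 other basement membrane glycoproteins, 15 were tested, and edgeR's quasi-likelihood test found 5 risen and 5 fallen (66.7%), with a median of 0.07 (log2). Matrilin 2 (Matn2, 1.09 ± 0.16 on the log2 scale), fibulin 2 (Fbln2, 0.62 ± 0.12), which binds laminin and nidogen, and Nid2 (0.37 ± 0.06) rose. Nephronectin (Npnt, -0.52 ± 0.06), a ligand of integrin alpha 8, fibronectin (Fn1, -0.43 ± 0.06) and fibulin 1 (Fbln1, -0.34 ± 0.06) fell. The Matn2 level was low, at 5.51 and 6.39 CPM in the scratched and unscratched knockout-labelled libraries and 3.05 and 2.51 CPM in the scratched and unscratched WT libraries. After the scratch 2 genes of this list fell, Hmcn1, named after its value was seen (-0.34 on the log2 scale, edgeR quasi-likelihood adjusted p = 0.0276), and Nid2 (-0.30, edgeR quasi-likelihood adjusted p = 0.00587).

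Among 16 tested receptors of 21, edgeR's quasi-likelihood test found 5 risen and 2 fallen with the knockout label (43.8%), with a median of 0.08 (log2). The laminin-binding integrin chains Itga6 (0.88 ± 0.10) and Itga3 (0.46 ± 0.06) rose, as did the collagen- and laminin-binding Itga1 (0.38 ± 0.11) and Rpsa (0.31 ± 0.06), a ribosomal protein also described as a laminin receptor, whose processed copies make its count uncertain. The heparan sulfate proteoglycan syndecan 2 (Sdc2) fell by 0.54 ± 0.05. Of the beta chains that pair with Itga6, both named after their values were seen, Itgb4 fell by 0.19 ± 0.06 and Itgb1 did not pass (-0.08 ± 0.06). Itga6 was at 16.99 and 15.3 CPM in the scratched and unscratched knockout-labelled libraries, against 9.89 and 7.64 CPM in the scratched and unscratched WT libraries.

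The enzymes that build and edit heparan sulfate had few calls: of 31 genes, 25 were tested, and edgeR's quasi-likelihood test found 0 risen and 2 fallen with the knockout label (8%), with a median of -0.02 (log2). Papss2, which makes the sulfate donor, fell (-0.26 ± 0.09, log2 and SE), as did the sulfotransferase Hs6st2 (-0.20 ± 0.06). Of 29 genes of cleavage and cross-linking, 20 were tested, 2 rose and 3 fell (25%, near the share of all tested genes), with a median of 0.00. Bmp1 (0.40 ± 0.06), a protease that processes laminin chains and procollagens, and the lysyl oxidase Loxl2 (0.35 ± 0.06), which cross-links collagen IV, rose. The gelatinase Mmp2 (-0.71 ± 0.10), the plasminogen activator Plat (-0.51 ± 0.06) and the metalloproteinase inhibitor Timp2 (-0.23 ± 0.06) fell. In none of the lists of collagens, receptors, heparan sulfate enzymes and cleavage genes did a gene pass for the scratch.

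**Figure D5:**
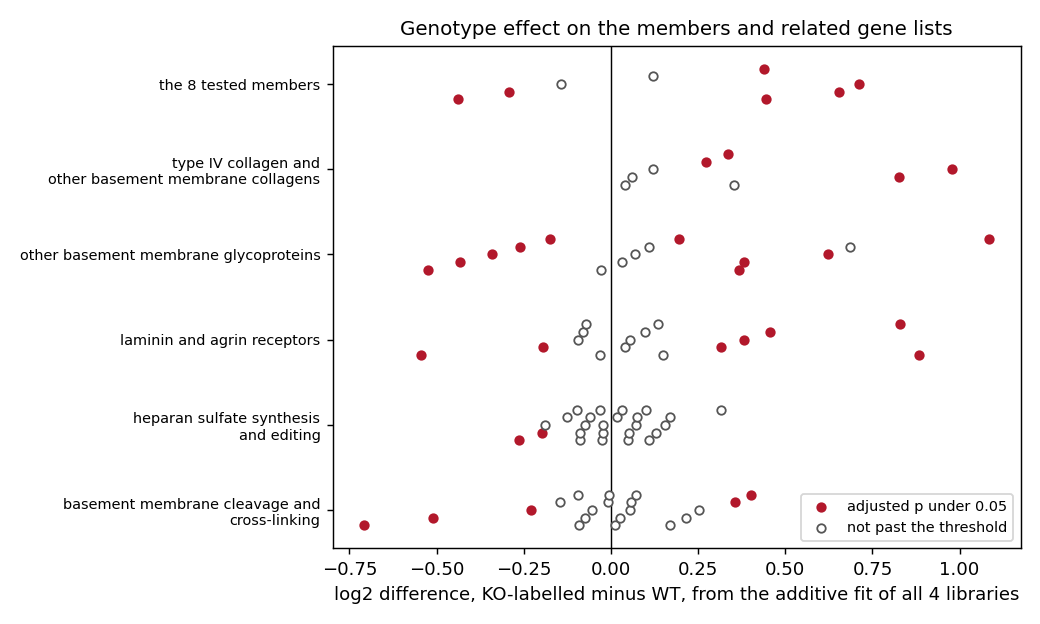
Genotype effect from the additive fit (log2, knockout-labelled minus WT) for each tested gene of the members and of 5 related lists, filled where the edgeR adjusted p was under 0.05. The 8 tested members spread to both sides of 0, the collagens lie at or above 0 and most heparan sulfate genes lie near 0.

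By Euclidean distance of centred log2 CPM over the 4 libraries, the genes nearest to Lamb1 among 10303 genes with a mean of at least 5 CPM were Abca9 (0.036), Nol4l (0.047) and Ccn4 (0.053). Nearest to Lamb3 were Lypd2 (0.043), Egln3 (0.075) and Prdx6 (0.079), and to Lama5 Plxna4 (0.069), Zfp36l1 (0.082) and Celsr1 (0.083). Among the 8 tested members these 3 had the widest range of log2 CPM. With 4 points per gene such closeness is a description of these libraries.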

How the data were processed

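The authors deposited raw counts per Ensembl gene and a table of RPKM values for 14844 genes, 161 of them without values. Per the submitters' processing notes, HTSeq 0.11.3, STAR 2.7.9a, edgeR 3.32.1, Trimmomatic 0.39 and the mm10 build were used. Which step each served, which gene annotation was counted and with what strandedness is not given in the sources used here. The labels' protocols name a stranded mRNA kit. Counts were scaled with TMM (edgeR 4.0.16, R 4.3.3), and genes with at least 1 CPM in at least 1 library were tested. A 2-fold difference needed a counting interval that excluded 1 and an absolute log2 ratio of CPM (2 prior counts added) of 1 or more. The additive fit used edgeR's quasi-likelihood test with a false discovery rate of 0.05, and its spread was 5.49% (biological coefficient of variation) with 25.4 prior degrees of freedom. DESeq2 1.42.0, other scalings, filters and prior counts, and the deposited RPKM with a pseudocount of 0.1 were alternatives. Scripts (Python 3.11.15, scipy 1.17.1) were tested on simulated data. Samples are separate libraries, with 1 per condition.

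Positions and transcript lengths came from GENCODE M21 of the same build, and promoter sequences from RefSeq. Members were matched by name and Ensembl identifier. The members and gene lists were chosen with earlier results of these data known. From each list, genes 2-fold different between genotypes were named, plus up to 5 with the largest genotype effect past the threshold and a mean of at least 5 CPM, and for the 3 tested members with the widest range, the 3 nearest genes. Some genes are not reported here and were left out of the lists.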

Additional observations from a re-analysis of the deposited data

How the results depend on the processing

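With 1 library per condition there was no replicate to leave out, and leaving a library out of the additive fit leaves no residual degrees of freedom. No paired analysis was possible because each condition has 1 library and the labels give no replicate numbers. Of 336 values of the tested members recomputed under the alternatives, 335 kept their direction and side of the threshold, or stayed within their counting interval. The exception was Lama3, whose genotype effect of -0.30 (log2) missed the threshold with DESeq2's Wald test (adjusted p = 0.213, against 0.00327 to 0.00905 under the other alternatives). Part of the 336 values could not move, because a filter changes which genes are tested and not a gene's own ratio. For the scratch effect of Lamb3 DESeq2 gave no adjusted p, and that value was counted as kept. DESeq2 found 968 genes in place of 3205 for the genotype and 41 in place of 359 for the scratch. Scaling by total counts moved the share of higher genes among those found for the scratch to 40.1%, from 50.4%. Counts of 2-fold genes followed the filter. Without one they were 611 in place of 277 between genotypes without a scratch, 535 in place of 234 after it, 226 in place of 33 for the scratch in knockout-labelled cells, 263 in place of 106 in WT cells and 175 in place of 102 for the difference of the responses. With at least 5 CPM in mean they were 61, 62, 5, 16 and 15. By the counting interval alone, a rule added after the data were seen, they were 6292, 5880, 3955 and 4589 for the first 4 of these. With exon lengths from GENCODE the mean chain shares of Lamb1 and Lamb2 were 2.72% and 96.2%, in place of 4.24% and 94.4%. With a pool of 12348 genes, 1 of the 3 nearest genes was shared for Lamb3 and 1 for Lama5. Depth limits Nid1 and, among the tested members, Lamb3 and Lama3 most.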
